A study of Mus musculus with 9 samples.

Results

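*Gdf15* encodes growth differentiation factor 15, a secreted stress cytokine, and was the gene examined here in RAW 264.7 macrophages, a mouse macrophage-like cell line, loaded with triglyceride-rich emulsion particles. It was chosen because the study also measured it by quantitative PCR as a marker of lipid stress; those PCR values were not used here. It is 1 gene of the 54432 in the deposited count table, found by its Ensembl identifier ENSMUSG00000038508. RNAseq was performed on 3 groups of 3 libraries: untreated control cells, cells given 1 mM VLDL-sized particles for 6 hours and cells given 1 mM chylomicron-sized (CHYL-sized) particles for 6 hours. The methods give this dose, while a supplementary legend of the study gives a lower one for the CHYL-sized particles. This bears on any difference between the particles. Both particles were artificial, made from sunflower oil with sodium caseinate as emulsifier, and no apolipoprotein is listed among their ingredients. The control cells are described as untreated, so caseinate and oil entered both treated groups and not the control. The question was how the *Gdf15* mRNA differed between these groups, and which of the genes known to act around it moved in the same cells.

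GDF15 is a distant member of the TGF-beta superfamily. It is made as a precursor, cut by proprotein convertases and secreted as a dimer, and it acts through the receptor GFRAL with the co-receptor RET in the hindbrain, where it lowers food intake. In most tissues its mRNA is scarce until cells are stressed, and ATF4 and CHOP of the integrated stress response, p53 and EGR1 are among the factors known to raise its transcription, in macrophages as in other cells.

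In the mouse assembly GRCm38 *Gdf15* lies on the minus strand of chromosome 8, from 70629393 to 70632456. The GENCODE annotation gives it 2 transcripts: one of 2 exons and 1545 bases that starts at 70632095, and one of 3 exons and 1380 bases that starts upstream at 70632456. No annotated gene overlaps it, and 0 of its 1820 transcript stretches of 31 bases occurs in the transcripts of another gene, so its reads have no near-identical copy to be split with. The sequence upstream of the more distal start is shown because it is where sites of stress-activated factors were looked for. It covers 250 bases at chr8:70632457-70632706 in GRCm38.p6, minus strand, from RefSeq, and ends just before the start site; it is 56.4% G or C.
Gdf15 distal upstream: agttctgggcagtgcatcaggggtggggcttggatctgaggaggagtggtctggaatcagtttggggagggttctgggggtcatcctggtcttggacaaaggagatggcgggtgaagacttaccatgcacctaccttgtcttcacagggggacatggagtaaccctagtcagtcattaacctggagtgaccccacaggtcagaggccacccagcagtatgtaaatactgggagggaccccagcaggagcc
Gdf15 E-box: cagggcagggCACGTGtgagcatcca
The second line gives 26 bases at chr8:70632163-70632188 on the same strand, with an E-box in capitals. Both strands of the 2 windows of 300 bases around the annotated starts, from 250 bases before to 50 after, were searched. The letters searched were TGATGNAAN (the composite element of ATF4 and CHOP), TGACGTCA (the cAMP response element), TGANTCA (the AP-1 site), TGACNNNGC (the core of the antioxidant response element), CACGTG (the E-box bound by TFEB and other factors), GCGNGGGCG (the EGR1 site), TATAAA and, by name, the decamer of the p53 element. The window of the distal start held none of them, which is why its line has no capitals. The window of the proximal start held a single match, the E-box, 83 to 78 bases before that start. Among 32851 promoter windows of this length, 7.15% held CACGTG, 3.95% the ATF4 and CHOP element, 12.4% the antioxidant core, 7.81% the AP-1 site, 5.55% the EGR1 site, 1.79% the cAMP response element, 8.36% the p53 decamer and 13.6% TATAAA. These are matches of letters in short windows and not measured binding sites.

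The depth was nearly equal, between 22393893 and 22856792 counts per library. The methods state that samples of 1 experiment were pooled, so each library stands for 1 pool. The replicate 3 libraries stood apart from replicates 1 and 2 in every group, between -22.9 and -17.7 on the second principal component where the other 6 libraries lay between 6.10 and 16.1, and *Gdf15* is therefore given with and without them. Of 9 macrophage markers, all were detected. Their summed level was 7093 to 7279 cpm (counts scaled by the library total) in control, 5918 to 6228 after VLDL-sized and 6127 to 6442 after CHYL-sized particles. After VLDL-sized particles 1 rose and 5 fell, where 17.8% of all tested genes passed as higher and 17.9% as lower. After CHYL-sized ones 0 rose and 2 fell, beside 12.7% and 13% of all tested genes. The part of these markers in the results was not tested. Of 8 markers of other cell types, 4 had no count in any library and the sum of all 8 never exceeded 2.01 cpm. In these bulk libraries a smaller share of cells that express a gene and less RNA of it per cell cannot be told apart.

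*Gdf15* mRNA was low in control cells and higher after both particles, most after the VLDL-sized ones. The control libraries held 17, 18 and 25 *Gdf15* counts (replicates 1, 2 and 3), which is 0.751, 0.796 and 1.09 cpm. After VLDL-sized particles there were 126, 103 and 108 counts, or 5.63, 4.55 and 4.73 cpm. After CHYL-sized particles there were 59, 62 and 87 counts, or 2.60, 2.76 and 3.85 cpm. The 3 groups did not overlap: each VLDL-sized library was above each CHYL-sized library, and each of these above each control. The nearest approach was between CHYL-sized replicate 3, the highest of its group, and VLDL-sized replicate 2, whose 95% exact Poisson intervals were 3.08 to 4.75 and 3.71 to 5.52 cpm and overlapped. Such intervals cover counting error only. The highest control library, replicate 3, had an interval of 0.708 to 1.61 cpm, which ended below the lowest bound of any treated library, 1.98 cpm.

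**Figure D1:**
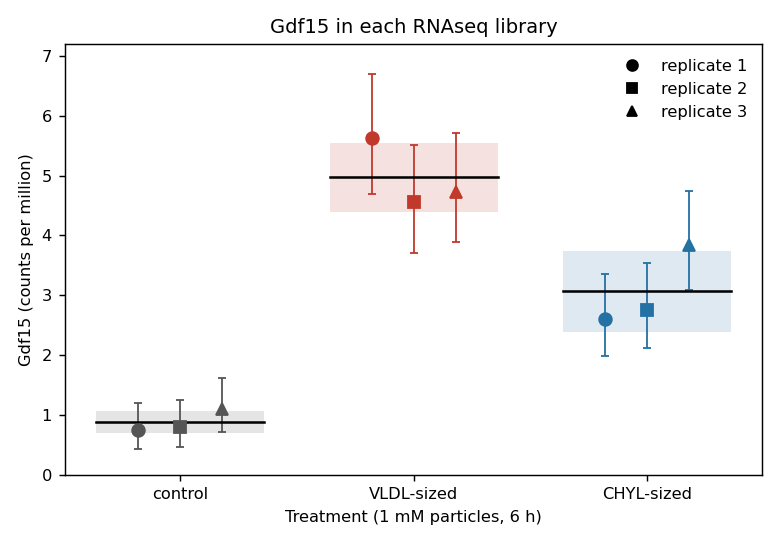
*Gdf15* in cpm (linear axis) in each of the 9 libraries, by treatment. Points are libraries with their exact 95% Poisson intervals, lines are group means and shaded bands are ± 1 SD (n = 3): the control libraries lie between 0.751 and 1.09 cpm, the CHYL-sized between 2.60 and 3.85 and the VLDL-sized between 4.55 and 5.63.

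The mean was 0.880 ± 0.186 cpm in control, 4.97 ± 0.576 cpm after VLDL-sized and 3.07 ± 0.680 cpm after CHYL-sized particles (SD, n = 3 each). The scatter of the control counts was about that of counting alone, with a coefficient of variation of 21.2% where Poisson counting gives 22.4%. It was 11.6% in the VLDL-sized group against 9.44% from counting. In the CHYL-sized group it was 22.2% against 12.0%, mostly through replicate 3. Per kb of merged exon (1852 bases), *Gdf15* had 0.475 cpm in control, above 11.8% of the 12636 tested genes with a length. With 2.68 cpm per kb it stood above 34.5% of them after VLDL-sized particles, and with 1.66 cpm per kb above 26.5% after CHYL-sized particles. The median tested gene was at 5.88, 5.45 and 5.54 cpm per kb in the 3 groups, so that *Gdf15* remained below the median gene in all of them.

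Compared with control, *Gdf15* rose 5.96-fold after VLDL-sized particles. Its log2 fold change was 2.58, with a standard error of 0.25, a 95% interval of 2.03 to 3.13 and an adjusted p of 2.5e-05 (limma-voom, Benjamini-Hochberg over 12637 genes). In this comparison 35.6% of the tested genes passed an adjusted p of 0.05, 17.8% as higher and 17.9% as lower. Only 51 genes had a larger log2 fold change than *Gdf15*, which was the 44th largest among the 2244 genes that rose. The libraries of these groups did not overlap for 48.8% of all tested genes, 15.5% with the treated group higher.

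After CHYL-sized particles *Gdf15* rose 3.61-fold. The log2 fold change was 1.85, with a standard error of 0.26, a 95% interval of 1.28 to 2.43 and an adjusted p of 5.3e-04 in limma-voom. Here 25.7% of tested genes passed, 12.7% as higher and 13% as lower, and *Gdf15* was 73rd among the 1610 that rose. The groups of this comparison did not overlap for 42.9% of tested genes, 13.3% with the treated group higher. Both comparisons use the same control libraries, so they are not independent of each other. Without replicate 3 of every group the log2 fold changes against control were 2.77 (adjusted p = 1.9e-06) for VLDL-sized and 1.85 (adjusted p = 2.4e-04) for CHYL-sized particles in limma-voom, where 43.4% and 33.8% of 12386 tested genes passed.

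Between the particles *Gdf15* was 1.65-fold higher after VLDL-sized than after CHYL-sized ones, a log2 difference of 0.72 (standard error 0.18, 95% interval 0.33 to 1.12). The unadjusted p was 0.0020 and the adjusted p 0.51 in limma-voom over all 12637 genes, so this difference did not pass. In this comparison 0% of genes passed in limma-voom with all 9 libraries and no replicate block, and 813 had an unadjusted p under 0.05. With edgeR 0 genes were called and with DESeq2 24, or 0.19%. In the limma-voom fit without a block 41 genes had a smaller p than *Gdf15*. Of all tested genes 11.1% had particle groups that did not overlap, 4.37% with VLDL-sized higher. With a replicate block 147 genes passed in limma-voom, or 1.16%, and *Gdf15* did not (adjusted p = 0.094). Without replicate 3 of every group the difference was 0.93 (standard error 0.18, 95% interval 0.53 to 1.32) and passed with an adjusted p of 0.018 in limma-voom, among 257 genes or 2.07% of 12386. The call thus differed between the fits with and without the replicate 3 libraries. Leaving out replicate 3 of only the control, VLDL-sized or CHYL-sized group gave adjusted p-values of 0.35, 0.67 and 0.20 (limma-voom). Fits without replicate 1 or without replicate 2 of every group were not made. Between libraries of the same number VLDL-sized exceeded CHYL-sized 2.17-fold in replicate 1, 1.65-fold in replicate 2 and 1.23-fold in replicate 3. The corresponding ratios to control were 7.49, 5.72 and 4.33 for VLDL-sized and 3.46, 3.47 and 3.52 for CHYL-sized particles. The replicate 3 library was the highest of the control group and of the CHYL-sized group but not of the VLDL-sized group.

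**Figure D2:**
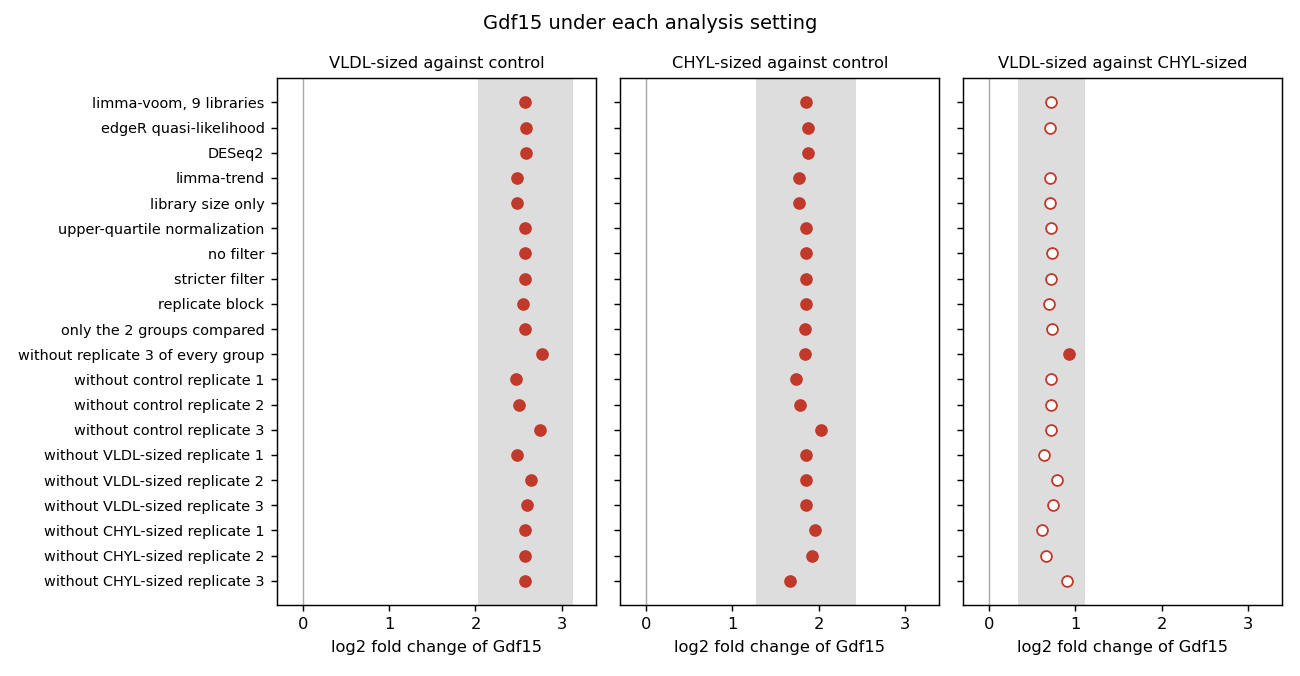
Log2 fold change of *Gdf15* (horizontal axis) in the 3 comparisons under each analysis setting (rows). Filled points have an adjusted p under 0.05, open points do not, and the grey band is the 95% interval of the limma-voom fit of 9 libraries; DESeq2 gave no adjusted p between the particles and has no point there. All points of both control comparisons are filled, and only the fit without replicate 3 of every group is filled between the particles.

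The receptor side of the pathway was not detected in these cells. *Gfral*, the receptor, and *Ret*, its co-receptor, had 0 counts in every library, which allows up to 3 counts per library. Of the 10 genes for the receptor, its relatives and the convertases that cut TGF-beta family precursors, 2 were tested. *Furin* had a log2 fold change of -0.06 after VLDL-sized and -0.11 after CHYL-sized particles, and *Pcsk7* of -0.07 and -0.04. Neither passed the test (adjusted p = 0.65, 0.44, 0.52 and 0.76, limma-voom).

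None of the other ligands of the TGF-beta superfamily that could be tested rose with *Gdf15*. Of 32, only 3 passed the filter on low counts, and 2 of these fell after both particles. Among all tested genes 17.9% passed as lower after VLDL-sized and 13% after CHYL-sized particles. *Bmp2*, a bone morphogenetic protein, fell by 1.55 on the log2 scale after VLDL-sized and by 1.49 after CHYL-sized particles (adjusted p = 3.6e-04 and 7.0e-04, limma-voom). *Tgfb3* fell by 0.72 and 0.70 (adjusted p = 0.013 and 0.020). *Tgfb1*, the main ligand of macrophages, had log2 fold changes of -0.21 and -0.15 and did not pass (adjusted p = 0.053 and 0.17). Per kb of exon, *Gdf15* in control (0.475 cpm per kb) was below *Bmp2* (0.603), *Tgfb3* (1.78) and *Tgfb1* (62.6). After VLDL-sized particles *Gdf15* with 2.68 cpm per kb was above *Tgfb3* (1.02) and *Bmp2* (0.191) and still far below *Tgfb1* (50.7). The other ligands did not exceed 9 counts in any library.

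Among the receptors and SMADs of the superfamily, 19 of 20 genes were tested, of which 4 rose and 3 fell after VLDL-sized and 2 rose and 3 fell after CHYL-sized particles. These shares were near the 35.6% and 25.7% of all tested genes that passed, with medians of 0.01 and -0.00 beside -0.00 and 0.00 for all genes. *Tgfbr2*, the type II receptor of TGF-beta, fell by 0.84 and 0.64 on the log2 scale, and *Smad3*, which carries its signal to the nucleus, by 0.86 and 0.69. *Acvrl1*, the type I receptor ALK1 for BMP9 and BMP10, rose by 2.11 and 1.85.

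Of 17 factors linked to *Gdf15* transcription, all tested, 6 rose and 3 fell after VLDL-sized particles, where 17.8% of all tested genes passed as higher and 17.9% as lower. After CHYL-sized ones 5 rose and 3 fell, beside 12.7% and 13% of all genes. The median log2 fold changes of the list were 0.06 and 0.05. *Ddit3*, which encodes CHOP, had 4.46, 4.996 and 7.26 cpm in control, 18.5, 17.1 and 19.8 cpm with VLDL-sized and 8.06, 9.70 and 12.1 cpm after CHYL-sized particles. Like *Gdf15*, its groups did not overlap and followed the same order. Of all tested genes, 15.5% had every VLDL-sized library above control and 13.3% every CHYL-sized one. For 4.37% every VLDL-sized library was above every CHYL-sized one. *Ddit3* rose by 1.85 (standard error 0.19, adjusted p = 4.1e-05) and 0.92 (standard error 0.21, adjusted p = 0.0079, limma-voom). The log2 difference between the particles was 0.92 (adjusted p = 0.50, limma-voom). *Atf4*, the transcription factor of the integrated stress response, had 224, 219 and 364 cpm in control, 487, 439 and 541 cpm with VLDL-sized and 336, 356 and 520 cpm after CHYL-sized particles. Its replicate 3 library was the highest in each group, and control replicate 3 was above CHYL-sized replicates 1 and 2. *Atf4* rose by 0.99 and 0.68 and *Atf3*, a stress-induced factor, by 1.64 and 1.26 (adjusted p = 0.0043, 0.039, 5.5e-04 and 0.0043). *Cebpb* rose by 0.74 and 0.70 and *Ppard*, a nuclear receptor for fatty acids, by 0.98 and 0.63 (adjusted p = 7.0e-05 and 0.0023 for *Ppard*, limma-voom). *Atf6*, a sensor of endoplasmic reticulum stress, rose by 0.18 after VLDL-sized particles and had 0.06 after CHYL-sized ones without passing.

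*Trp53*, which encodes p53, fell by 0.39 and 0.27 on the log2 scale, and *Klf4* by 0.58 and 0.62. *Tfeb*, a regulator of lysosomal genes, fell by 1.15 and 0.87. *Egr1*, an immediate early factor, had 0.700 to 2.83 cpm among the untreated libraries. Its log2 fold change was 0.84 after VLDL-sized and 0.95 after CHYL-sized particles, which did not pass (adjusted p = 0.42 and 0.38, limma-voom); in each group its replicate 3 library was the lowest. *Nfe2l2*, which encodes NRF2, had -0.14 and -0.11 and *Xbp1* 0.03 and 0.05, with no call.

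Of the kinases that start the integrated stress response, *Eif2ak4* (GCN2) rose by 0.52 and 0.42 and *Eif2ak2* (PKR) fell by 0.43 and 0.30 on the log2 scale. *Eif2ak3* (PERK) had 0.09 and 0.11 and *Eif2ak1* (HRI) -0.11 and -0.13, and neither passed. In all 1 of 9 genes of this list rose and 1 fell after each particle, no more than the 17.8% and 17.9% (VLDL-sized) or 12.7% and 13% (CHYL-sized) of all tested genes that passed as higher and as lower.

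Targets of ATF4 and CHOP were higher together with *Gdf15*. Of 28 listed, 25 were tested, and 20 rose and 0 fell after VLDL-sized particles, with a median log2 fold change of 0.75 beside -0.00 for all genes, of which 17.8% passed as higher. After CHYL-sized particles 12 rose and 0 fell, with a median of 0.53, where 12.7% of all genes passed as higher. With a replicate block 22 passed, where 39.2% of all genes passed in either direction. Without replicate 3 of every group 21 passed, where 33.8% of all genes did. Between the particles all 25 had higher values after VLDL-sized ones, where 49.5% of all tested genes did. The median difference was 0.21 and 0 passed in limma-voom with 9 libraries and no replicate block. With a replicate block 8 of the 25 passed as higher and 0 as lower, where 1.16% of all genes passed. Of the factors above *Ddit3* passed with the block. Without replicate 3 of every group 17 of the 25 passed as higher after VLDL-sized than CHYL-sized particles, and of the factors above *Atf4*, *Ddit3* and *Atf3* passed. In that fit, where 2.07% of all genes passed, *Acvrl1* passed as higher and *Tgfbr2* as lower among the receptors and SMADs, 2 of 17 p53 targets passed as higher (*Mdm2* and *Plk2*), and *Hilpda* and *Plin2* passed as higher among the genes of the PCR panel.

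*Trib3*, a pseudokinase that CHOP induces, had 11.05, 11.1 and 20.1 cpm in control, 44.8, 36.2 and 48.6 cpm with VLDL-sized and 23.9, 25.7 and 39.8 cpm after CHYL-sized particles. It rose by 1.76 and 1.18 on the log2 scale, with 0.58 between the particles (adjusted p = 4.1e-04, 0.0084 and 0.70, limma-voom). As for *Gdf15*, replicate 3 was the highest control and CHYL-sized library, and for *Trib3* the CHYL-sized replicate 3 reached into the VLDL-sized range. *Ppp1r15a* (GADD34), which reverses the phosphorylation of eIF2alpha, rose by 1.95 and 1.30. *Sesn2*, a stress-induced regulator of growth signalling, rose by 1.50 and 0.89, and *Nupr1* by 0.99 and 0.53. *Chac1*, which degrades glutathione, rose by 1.88 after VLDL-sized particles and had 1.15 after CHYL-sized ones without passing (adjusted p = 0.066). *Asns*, asparagine synthetase, rose by 0.79 and 0.57 and *Mthfd2* by 0.83 and 0.62, whereas *Psat1* with 0.19 and 0.11 did not pass. *Slc7a11*, the cystine transporter that NRF2 also induces, had the largest values of the list, 4.56 and 4.12.

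Of 20 listed targets of p53, 17 were tested. After VLDL-sized particles 7 rose and 2 fell, beside 17.8% of all tested genes higher and 17.9% lower. With CHYL-sized particles 6 rose and 3 fell, beside 12.7% and 13%. The medians were 0.19 and 0.08. *Mdm2*, the ubiquitin ligase of p53, rose by 1.09 and 0.82 and *Cdkn1a* (p21) by 0.37 and 0.32. *Gadd45a*, which ATF4 also induces, rose by 1.80 and 1.42, whereas *Ccng1* had -0.07 and -0.06 and *Btg2* 0.19 and -0.06, with no call. All 19 NRF2 targets rose after both particles, by medians of 1.85 and 1.76, among them *Hmox1* (heme oxygenase 1) by 4.78 and *Gclm* by 3.15 after VLDL-sized particles. Between the particles the median difference of the NRF2 targets was 0.07, and 17 of the 19 had higher values after VLDL-sized ones. So had 12 of the 17 p53 targets, where 49.5% of all tested genes had. Without replicate 3 of every group 3 NRF2 targets passed, all as higher, where 2.07% of all genes passed. With a replicate block 1 NRF2 target passed as higher, beside 1.16% of all genes.

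**Figure D3:**
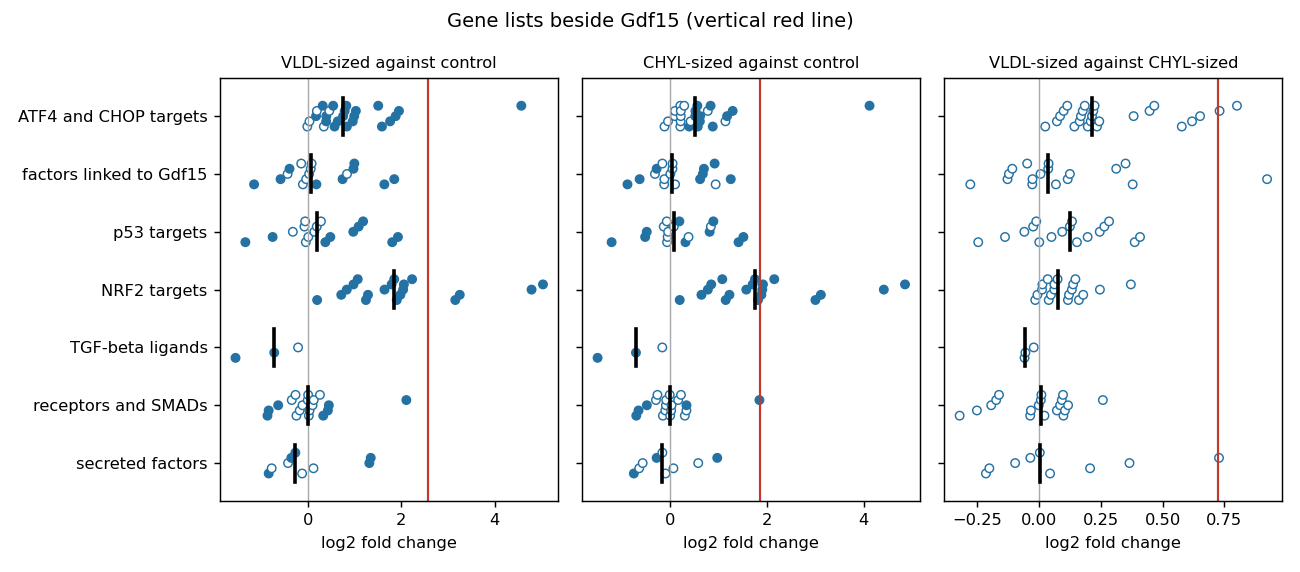
Log2 fold changes (horizontal axes, the panel between the particles being narrower) of the tested genes of 7 lists in the 3 comparisons. Filled points have an adjusted p under 0.05, black bars are list medians and the red line is *Gdf15*; the ATF4 and CHOP targets had medians of 0.75, 0.53 and 0.21 and the NRF2 targets of 1.85, 1.76 and 0.07.

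Of 19 other secreted stress factors listed, 9 were tested, and 2 rose and 3 fell after VLDL-sized particles, with 1 up and 2 down after CHYL-sized ones. Of all tested genes 17.8% and 12.7% passed as higher, near the counts of rises, and 17.9% and 13% as lower. *Osm* (oncostatin M) rose by 1.34 and 0.98 on the log2 scale. *Vegfa* rose by 1.31 after VLDL-sized particles (adjusted p = 0.026) and had 0.59 after CHYL-sized ones (adjusted p = 0.36, limma-voom). *Metrnl* fell by 0.84 and 0.74 and *Spp1* (osteopontin) by 0.27 and 0.27; *Tnf* fell by 0.35 after VLDL-sized particles and had -0.15 after CHYL-sized ones. *Fgf21*, the other stress hormone that ATF4 induces, had at most 1 count in any library, *Il6* at most 4 and *Il1b* at most 3. Of 5 further lipid-sensitive genes, a list taken from the PCR panel, 4 rose after both particles: *Plin2*, a coat protein of lipid droplets, by 1.82 and 1.60, *Hilpda*, an inhibitor of triglyceride hydrolysis, by 1.58 and 1.22, *Ptgs2* by 1.22 and 1.12, and *Ddit3* as above. *Cxcl2* had 1.45 and 1.32 and did not pass (adjusted p = 0.068 and 0.12).

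The 6 genes whose values over the 9 libraries lay nearest to those of *Gdf15* were sought among 10595 genes with a mean of at least 50 counts, by the root mean square difference of log2 cpm from the control mean. They were *Cd274* (0.268), which encodes the checkpoint ligand PD-L1, *Hspa1b* (0.279), an inducible HSP70 chaperone, *Ppfibp2* (0.284), *Dusp1* (0.301), a phosphatase of MAP kinases, *Slc6a9* (0.302), a glycine transporter, and *Gsr* (0.309), glutathione reductase. The 1st percentile of all candidates was at 0.855 and the median at 1.85. This is a description over 9 libraries, and since genes were picked for their likeness no test was made of it. *Cd274* had 3.89, 3.98 and 7.54 cpm in control, 22.4, 22.4 and 21.3 cpm with VLDL-sized and 17.0, 15.2 and 16.8 cpm after CHYL-sized particles. It had no overlap between groups and the same order as *Gdf15*. *Hspa1b* came nearest in size, with log2 fold changes of 2.65 and 1.69 against control and 0.95 between the particles; its reads are uncertain because of its near-identical copy *Hspa1a*. *Gsr* reached 2.23 and 2.15, with similar levels after both particles.

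**Figure D4:**
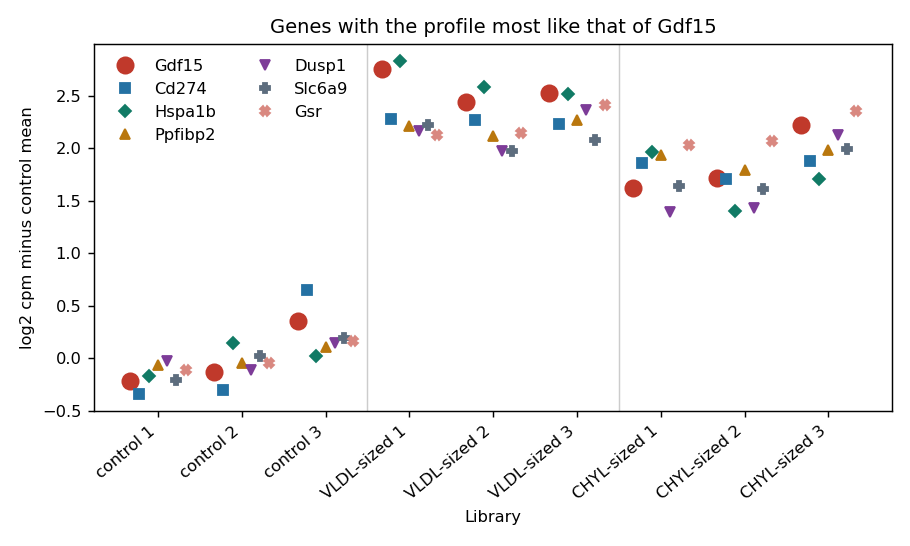
Log2 cpm minus the control mean (vertical axis) of *Gdf15* (large circles) and the 6 genes most like it in each of the 9 libraries. All 7 genes lie closer to 0 in each control library than in any treated library.

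Of 10 protein-coding genes that start within 100 kb of *Gdf15*, 9 were tested, and 2 rose and 3 fell after VLDL-sized particles, while 1 rose and 1 fell after CHYL-sized ones. These rises were near the 17.8% and 12.7% of all tested genes that passed as higher, and 17.9% and 13% passed as lower. The medians were -0.11 and -0.06. The nearest, *Lrrc25*, starts at -16301 bases from the start of *Gdf15*, towards lower coordinates, and fell by 0.67 and 0.64 on the log2 scale. On the other side *Pgpep1*, 27932 bases away, rose by 0.56 after VLDL-sized particles and had 0.37 after CHYL-sized ones (adjusted p = 0.0054 and 0.053, limma-voom). *Ell*, an elongation factor of RNA polymerase II, rose by 0.58 and 0.52. *Isyna1* and *Ssbp4* fell by 0.21 and 0.26 after VLDL-sized particles. *Jund*, *Lsm4*, *Gm3336* and *Pde4c* did not pass in either comparison, and *Iqcn* had no count. The highest positive log2 fold change of a neighbour within 100 kb was 0.64, of *Gm3336* after VLDL-sized particles without a call, where *Gdf15* had 2.58.

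**Figure D5:**
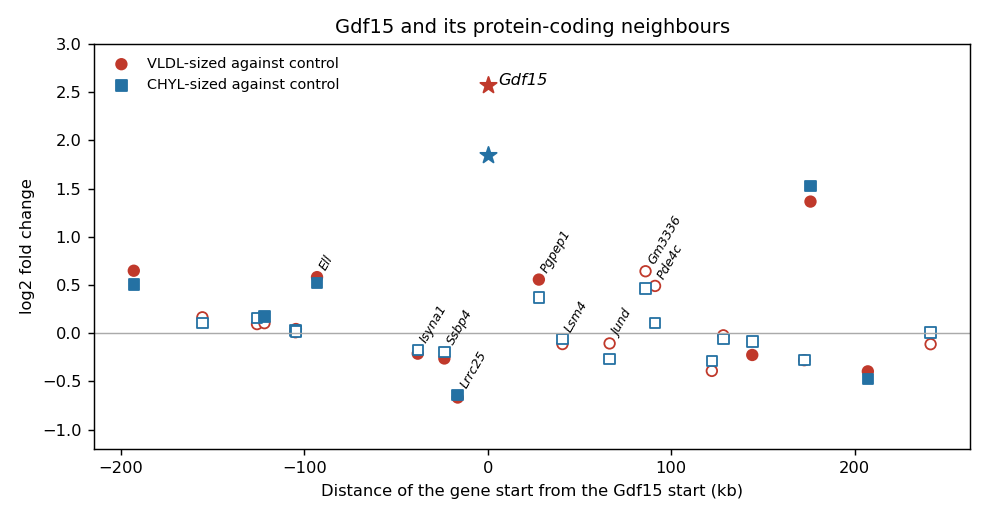
Log2 fold change against control (vertical axis) of tested protein-coding genes by the distance of their start from that of *Gdf15* in kb, for VLDL-sized (circles) and CHYL-sized (squares) particles. Filled points have an adjusted p under 0.05 and stars are *Gdf15*, at 2.58 and 1.85; the labelled genes within 100 kb lie between -0.67 and 0.64.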

How the data were processed

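RNAseq of 9 libraries of RAW 264.7 cells was analysed. The authors mapped reads with Salmon 0.14.1 to GENCODE M22 transcripts of GRCm38.p6 and deposited an estimated count per gene. According to the methods, counts were scaled for transcript length and depth; those deposited appeared unscaled (58.3% of values above 10 were whole) and were used as they stand (rounded for edgeR and DESeq2). A gene needed over 10 counts in 3 or more libraries. The test was limma 3.58.1 with voom weights, on TMM factors from edgeR 4.0.16 (R 4.3.3), in 1 model of all libraries without a replicate block, with Benjamini-Hochberg adjustment; DESeq2 1.42.0 was an alternative. Levels in cpm use the library total alone. Coordinates and lengths are from GENCODE M21. Symbols were matched for 54346 of 54432 identifiers.

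The gene and the lists were chosen with earlier results of these data known. Genes named are *Gdf15*, genes marked for their role in each list, the 6 tested genes most like *Gdf15* and protein-coding genes within 100 kb. *Slc7a11*, *Acvrl1*, *Ppard*, *Atf6*, *Plk2*, *Sesn1* and *Phlda3* were named after their values were seen. On simulated counts of VLDL-sized against control over 12487 genes, limma-voom recovered 79% of 2-fold and 98% of 4-fold changes. Over 12483 genes it recovered 100% of 5-fold changes at the control count of *Gdf15*. The genes set to that count kept the spread fitted at their own level, and no other gene was changed. The 100% therefore does not measure how surely a change of *Gdf15* itself would be called. The methods describe biological and technical triplicates with the samples of each condition pooled within an experiment.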

Additional observations from a re-analysis of the deposited data

How the results depend on the processing

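*Gdf15* kept its direction and passed against control under all 19 alternatives, with log2 fold changes of 2.47 to 2.77 after VLDL-sized and 1.67 to 2.03 after CHYL-sized particles and adjusted p-values (limma-voom, edgeR or DESeq2) of at most 3.1e-04 and 0.0041. Between the particles the value lay between 0.61 and 0.93 and passed only without replicate 3 of every group (0.93, adjusted p = 0.018); DESeq2 gave 0.71 with an unadjusted p of 0.0032 and no adjusted p. Leaving out 1 library at a time gave 2.47 to 2.75, 1.67 to 2.03 and 0.61 to 0.90. About 20 counts per control library limit *Gdf15*, since counting alone gives a coefficient of variation of 22.4%. No alternative addressed the caseinate in the particles.

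With a replicate block *Gdf15* had 2.55, 1.86 and 0.69 (adjusted p = 3.2e-06, 7.8e-05 and 0.094, limma-voom), and 4949 genes in place of 3249 passed for CHYL-sized particles and 147 in place of 0 between the particles. Deviations from the group mean correlated across genes, for libraries of the same number, at 0.089, 0.099 and 0.22 (control and VLDL-sized), 0.098, 0.024 and 0.27 (control and CHYL-sized) and 0.00021, 0.10 and 0.28 (the particles); replicate 3 correlated best with its own number in every pair of groups and replicates 1 and 2 did so only in some, so the numbers were not taken as pairs.

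Between the particles DESeq2 called 24 genes and the fit without replicate 3 of every group 257; leaving out 1 library gave 0 to 1, the 1 appearing without VLDL-sized replicate 3 or CHYL-sized replicate 2. Against control, 47.9% of all tested genes passed with the replicate block for VLDL-sized particles and 43.4% without replicate 3, in place of 35.6%. For CHYL-sized particles these shares were 39.2% and 33.8%, in place of 25.7%. Leaving out 1 library, 3482 to 4611 genes passed for VLDL-sized particles (in place of 4500) and 2320 to 3498 for CHYL-sized ones (in place of 3249). Beside these general changes, numbers of called list members moved as follows, and the cause was not tested. For CHYL-sized particles they were 22 of the ATF4 and CHOP targets with the replicate block and 21 without replicate 3 of every group, in place of 12 (9 to 18 leaving out 1 library). For the receptors and SMADs they were 11 (block, or without replicate 3 of every group) in place of 7 after VLDL-sized and 8 (library size only) or 9 (block, or without replicate 3) in place of 5 after CHYL-sized particles. The kinases and sensors had 4 with the block in place of 2 after VLDL-sized particles, and the ligands 1 in place of 2 after CHYL-sized particles with a stricter filter (1 to 2 leaving out 1 library). The secreted factors had 3 to 5 and the macrophage markers 3 to 6 after VLDL-sized particles leaving out 1 library. The macrophage markers had 6 (library size only) or 4 (block, or without replicate 3) in place of 2 after CHYL-sized particles, and 1 to 3 leaving out 1 library. The neighbours had 3 to 5 after VLDL-sized particles leaving out 1 library and, in place of 2 after CHYL-sized ones, 5 (DESeq2, or library size only), 4 (stricter filter, or only the groups compared), 6 (block, or without replicate 3) and 2 to 5 leaving out 1 library.

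Values near 0 with no call changed sign. With library size only, log2 fold changes were -0.066 and -0.025 for *Xbp1* (VLDL-sized and CHYL-sized), -0.032 for *Tfe3* and -0.0034 for *Eif2ak3* (VLDL-sized), and -0.022 for *Atf6* and -0.076 for *Adgre1* (CHYL-sized). Without replicate 3 of every group they were -0.014 for *Xbp1* and 0.020 for *Jund* (VLDL-sized), and -0.016 for *Smad7* and 0.022 for *Tnf* (CHYL-sized), and with only the groups compared -0.00029 for *Adgre1* (CHYL-sized). Leaving out 1 library gave, after VLDL-sized particles, -0.14 to 0.024 for *Furin*, -0.23 to 0.012 for *Nfe2l2*, -0.15 to 0.16 for *Xbp1*, -0.0077 to 0.23 for *Eif2ak3*, -0.011 to 0.18 for *Adgre1* and -0.22 to 0.00071 for *Jund*. After CHYL-sized particles it gave -0.10 to 0.021 for *Pcsk7*, -0.043 to 0.41 for *Smad7*, -0.20 to 0.039 for *Nfe2l2*, -0.12 to 0.20 for *Xbp1*, -0.14 to 0.19 for *Adgre1* and -0.053 to 0.32 for *Pde4c*.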
